A study of Mus musculus with 2 samples.

Results

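The genes described here carry glucose into the cell, break it down to pyruvate, and convert pyruvate to lactate or pass it towards the mitochondrion. They number 34 of the 43346 genes in the expression tables of the newborn mouse thymus, and they were chosen by name as the glucose transporters, the enzymes of glycolysis, the lactate dehydrogenases, the gate to the pyruvate dehydrogenase complex and the monocarboxylate transporters. All 34 were found by gene identifier. The list names genes by pathway step and sets no threshold on a measured value.

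One library of total RNA was made from the thymus of each of 2 pups of the B6NCrl strain at postnatal day 0, with both lobes of a pup in its library. Both pups came from 1 pregnant female, no treatment or altered gene is named in the labels, and sex was not collected. There is 1 group of 2 littermates, so no conditions can be compared, and every spread below measures only the difference between these 2 libraries, which holds biological and technical parts together. The libraries held 39046411 and 41576822 estimated counts, and both held the defining markers of the tissue: 6 of 6 thymocyte markers and 6 of 6 thymic epithelium markers reached 1 TPM (transcripts per 1e6, a level corrected for transcript length) in both.

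Glucose enters through facilitative transporters and is trapped by hexokinase as glucose 6-phosphate. Phosphofructokinase then commits the sugar to glycolysis, and the later steps yield ATP, NADH and pyruvate. Lactate dehydrogenase regenerates NAD by reducing pyruvate to lactate, while the pyruvate dehydrogenase complex burns pyruvate in the mitochondrion unless its kinases switch it off. In the thymus, dividing immature thymocytes are known to raise glucose uptake and glycolysis when the pre-T-cell receptor and Notch signal.

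Nearly all pyruvate kinase RNA was of the M2 form. Pkm, the pyruvate kinase of most tissues, makes the M1 or the M2 enzyme according to which of 2 mutually exclusive coding exons is spliced in. M1 is the form of adult muscle and brain, and M2 that of embryonic and dividing cells. Both exons are 167 bases long and each is exon 9 of its transcript. They lie next to each other on the plus strand of mm10 (GRCm38), the M1 exon at chr9:59675029-59675195 and the M2 exon at chr9:59675568-59675734. Their reference sequences from the GENCODE M21 transcripts are shown because the share of each form rests on reads that tell them apart; capitals mark the bases at which the exons differ.

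M1 exon: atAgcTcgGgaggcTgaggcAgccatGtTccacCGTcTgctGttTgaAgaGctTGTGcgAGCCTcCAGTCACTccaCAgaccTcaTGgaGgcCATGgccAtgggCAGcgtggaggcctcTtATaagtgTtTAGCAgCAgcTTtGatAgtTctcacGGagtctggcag
M2 exon: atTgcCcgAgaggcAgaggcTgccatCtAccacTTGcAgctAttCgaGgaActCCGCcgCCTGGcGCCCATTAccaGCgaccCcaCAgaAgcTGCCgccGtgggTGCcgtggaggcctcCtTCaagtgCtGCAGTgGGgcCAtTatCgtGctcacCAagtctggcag

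Over the 167 positions 103 bases (61.7%) were identical and 64 differed. The M2 transcript took 98.04% of Pkm TPM in replicate 1 and 98.00% in replicate 2. The M1 transcript took 1.96% and 2.00%. By estimated counts, M1 held 657 of 33455 in replicate 1 (1.96%, 95% Wilson interval 1.82 to 2.12%) and 810 of 40575 in replicate 2 (2.00%, 1.86 to 2.14%). These intervals treat every Pkm count as able to tell the forms apart. Both transcripts are 2432 bases long and the deciding exon 167, so many counts were divided by the authors' estimate. The intervals are therefore narrower than the counting error of the share, and no weight is put on their overlap between the libraries. M1 was a minor form but a measurable one, at 9.55 and 10.91 TPM against 476.73 and 535.70 TPM for M2. RNA of 6 factors known to act on this choice was looked up, and 6 of 6 were detected. Ptbp1, a repressor of the M1 exon, stood at 179 and 204 TPM, and its neuronal paralogue Ptbp2 at 14.96 and 13.98 TPM. The further repressors Hnrnpa1 (556 and 542 TPM) and Hnrnpa2b1 (840 and 920 TPM) and the M2-promoting factor Srsf3 (810 and 800 TPM) were among the higher genes of the tissue. Rbm4, a factor known to favour M1, was at 44.8 and 56.0 TPM.

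By detection, defined as at least 1 TPM in both libraries, 32 of the 34 genes were present. Of all protein-coding genes 57.3% reached that level. The 2 genes below it were Hk3 at 0.67 and 0.80 TPM and Pklr, the pyruvate kinase of liver and red cells, at 0.03 and 0.02 TPM. Pklr rested on 2.07 and 2.01 estimated counts, fewer than 3 in each library, and 711 bases of its exons overlap Hcn3 on the other strand. At least 100 TPM in both libraries was reached by 10 of the 34 genes, against 7.04% of protein-coding genes. Another 14 had means between 10 and 100 TPM and 8 between 1 and 10 TPM. The median gene of the 34 had 28.9 TPM, beside 17.3 TPM for all detected protein-coding genes. Together the 34 genes summed to 5206 and 5696 TPM, or 0.631% and 0.682% of the TPM of all protein-coding genes.

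**Figure D1:**
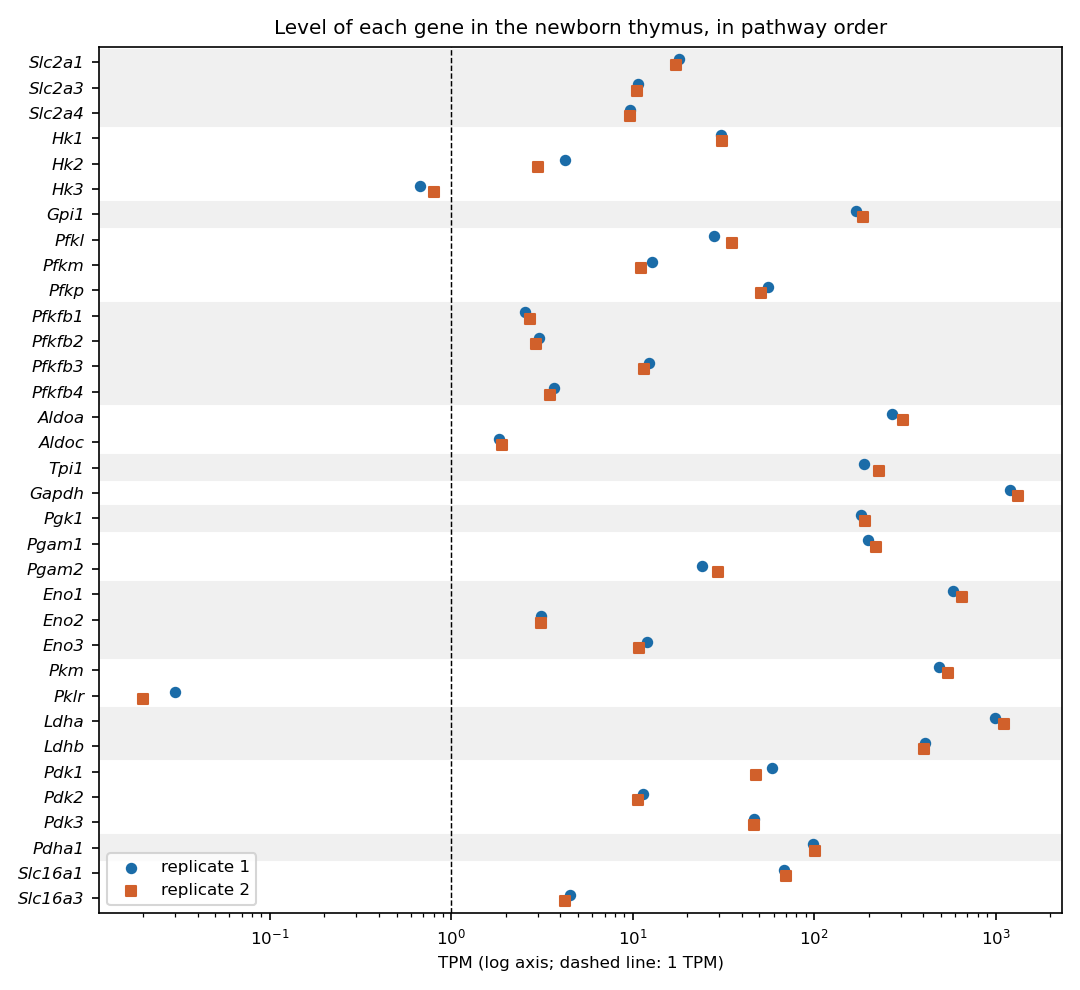
TPM of each of the 34 genes (log axis) in replicate 1 (blue circles) and replicate 2 (orange squares), in pathway order with alternate steps shaded; the dashed line is 1 TPM. Gapdh and Ldha stand furthest to the right, Hk3 and Pklr lie left of the dashed line, and the points of the libraries lie close together for most genes.

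Levels differed widely by step. The uptake and hexokinase steps had mean sums of 37.97 and 35.21 TPM, and lactate dehydrogenase, at the exit, one of 1460 TPM. The 3 glucose transporters summed to 38.33 TPM in replicate 1 and 37.60 TPM in replicate 2. Slc2a1, which encodes the basal transporter GLUT1, was at 17.96 and 17.39 TPM and held 46.6% ± 0.429 (SD, n = 2) of the sum. Slc2a3, encoding the high-affinity GLUT3, was at 10.64 and 10.55 TPM. Slc2a4, encoding the insulin-responsive GLUT4 of muscle and fat, was nearly level with it at 9.73 and 9.66 TPM. In both libraries the order was Slc2a1, Slc2a3, Slc2a4, and the gap between the last of these was larger than the difference of either gene between libraries. GLUT4 is named for muscle and fat, so the markers of those tissues are given here. The 8 skeletal muscle markers summed to 75.3 and 92.2 TPM with 6 detected, and the 6 fat markers to 6.98 and 1.37 TPM with 0 detected. Plin1, a fat droplet protein, had 26 counts in replicate 1 and 0 in replicate 2. Slc2a4 was 1.05-fold higher in replicate 1 after scaling for library size by the trimmed mean of M-values (TMM), a direction that turns under spike-in scaling, and the part of muscle and fat RNA in its level was not tested. In a whole organ, fewer cells of a type and less RNA per cell cannot be told apart.

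The hexokinases, which phosphorylate glucose, summed to 35.56 and 34.86 TPM, close to the transporters. Hk1, the widely expressed mitochondrial form, was at 30.63 and 31.04 TPM and made up 87.6% ± 2.05 of the step. Hk2, the form induced by growth signals and hypoxia, was at 4.26 and 3.02 TPM, and the ratio of Hk1 to Hk2 was 7.19 in replicate 1 and 10.3 in replicate 2. On transcripts annotated as protein-coding alone, Hk2 was at 2.09 and 1.40 TPM and the ratio was 14.4 and 22.0. Hk3, a form of myeloid cells, added 2.09% ± 0.290. Of the 6 granulocyte and monocyte markers 5 were detected, with sums of 280 and 212 TPM, and their part in the Hk3 level was not tested. Hk1 RNA was divided between Hk1-202 (67.1% and 69.5% of its TPM) and Hk1-201 (30.4% and 29.6%).

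Gpi1, which turns glucose 6-phosphate into fructose 6-phosphate, was at 170.73 and 185.09 TPM, 5.06-fold ± 0.359 the hexokinase sum. The phosphofructokinases summed to 96.52 and 97.02 TPM. Pfkp, the platelet-type subunit, led with 55.55 and 50.70 TPM. Pfkl, the liver-type subunit, followed with 28.21 and 35.26 TPM, and Pfkm, the muscle-type subunit, with 12.76 and 11.06 TPM. The order was the same in both pups, while the share of Pfkl was 29.2% in replicate 1 and 36.3% in replicate 2 and that of Pfkp 57.6% and 52.3%. The level of Pfkp carries 2 limits. Its exons overlap those of Pitrm1 on the other strand over 748 bases, and 77.7% ± 3.70 of its TPM lay on transcripts annotated as protein-coding.

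The 4 PFKFB genes encode the enzymes that make and remove fructose 2,6-bisphosphate, the main activator of phosphofructokinase. They summed to 21.56 and 20.79 TPM. Pfkfb3, the form with the strongest kinase activity, was at 12.27 and 11.61 TPM and held 56.4% ± 0.754. Pfkfb4 was at 3.69 and 3.51 TPM, Pfkfb2 at 3.06 and 2.95 TPM and Pfkfb1 at 2.54 and 2.72 TPM. The order of these 3 was the same in both libraries, but Pfkfb1 rested on only 97 and 111 counts.

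From aldolase to pyruvate kinase, the leading paralogue held over 85% of each step that has several. Aldoa, which splits fructose 1,6-bisphosphate, was at 268.10 and 310.96 TPM, while Aldoc, its brain form, was at 1.84 and 1.90 TPM, so that Aldoa made up 99.4% ± 0.0526. Tpi1, which interconverts the 2 triose phosphates, was at 188.37 and 228.20 TPM. Pgk1, the first ATP-yielding enzyme, was at 180.94 and 190.06 TPM. Pgam1, the phosphoglycerate mutase of most tissues, was at 198.11 and 219.24 TPM. Its muscle paralogue Pgam2 was at 24.25 and 29.65 TPM and held 11.4% ± 0.712 of the step. Eno1, the ubiquitous enolase, was at 582.60 and 653.06 TPM and held 97.7% ± 0.305. The muscle enolase Eno3 was at 11.96 and 10.83 TPM and the neuronal enolase Eno2 at 3.13 TPM in both. Pkm was at 486.28 and 546.61 TPM and held over 99.99% of the pyruvate kinase sum with a mean of 99.995%.

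**Figure D2:**
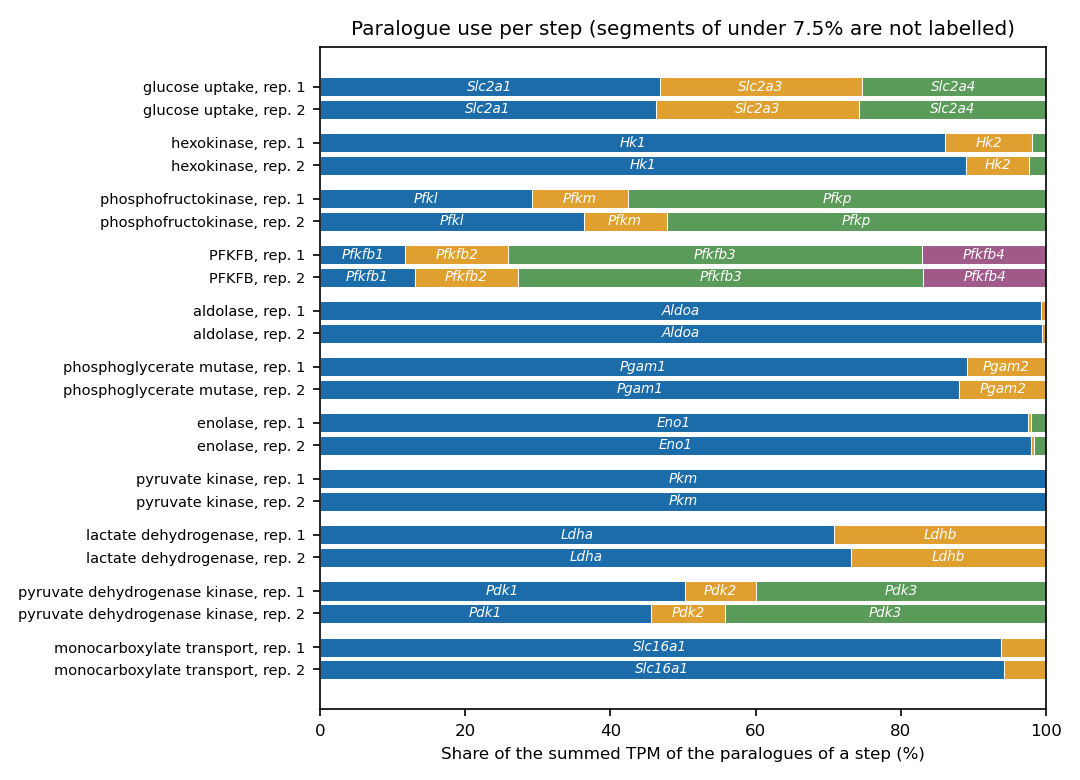
Share of the summed TPM of each step (%) taken by each paralogue, 1 bar per library; segments follow the order in which the genes are listed and colours do not carry over between steps. Hk1, Aldoa, Pgam1, Eno1, Pkm and Slc16a1 each fill over 85% of their bars, while glucose uptake, phosphofructokinase, PFKFB and pyruvate dehydrogenase kinase are divided among several genes.

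Gapdh, which oxidises glyceraldehyde 3-phosphate and reduces NAD, was the highest of the 34 genes by deposited TPM, at 1202.23 and 1334.36 TPM and rank 70 of 21474 protein-coding genes. That rank rested on a short annotated transcript. Gapdh-208, a processed transcript of 483 bases of which 483 lie inside exons of the coding transcripts, took 64.2% and 61.9% of Gapdh TPM but 34.5% and 32.3% of its estimated counts. On coding transcripts alone Gapdh was at 422 and 500 TPM, below Eno1 at 565 and 637 TPM and Ldha at 991 and 1103 TPM. Those Gapdh values leave out the counts placed on Gapdh-208, although its bases lie inside coding exons. The order of Gapdh and Eno1 therefore depends on how these counts are assigned, which was not tested.

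Among the 28 detected genes with several transcripts, 4 had a highest transcript that is not annotated as coding: Gapdh, Hk2, Pdk1 and Eno2. Over all detected protein-coding genes with several transcripts the share was 9.52%. Hk2-202, of 594 bases that all lie inside exons of coding transcripts, took 50.9% and 53.6% of Hk2 TPM with 8.65% and 9.56% of its counts. In Pdk1, the processed transcript Pdk1-208 took 41.2% and 42.8% of TPM and the coding transcript 22.7% and 23.9%. In Eno2, a transcript with a retained intron took 37.7% and 30.5%. Most of the genes were not of this kind: 25 of the 34 had over 90% of their TPM on coding transcripts. That count includes Pfkfb4, Pgam1, Pgam2, Slc16a1, Pkm, Pfkm and Ldhb, which have only coding transcripts listed and so could not fall lower. It also includes Pklr, on 2.07 and 2.01 counts. No share over all genes stands beside it. The 5 genes under 75% were Gapdh, Hk2, Pdk1, Eno2 and Pfkfb2, the last at 67.9% ± 4.66. Eno3 was fully coding, yet the estimate moved its RNA between transcripts: Eno3-206 held 45.7% in replicate 1 and 0.12% in replicate 2.

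**Figure D3:**
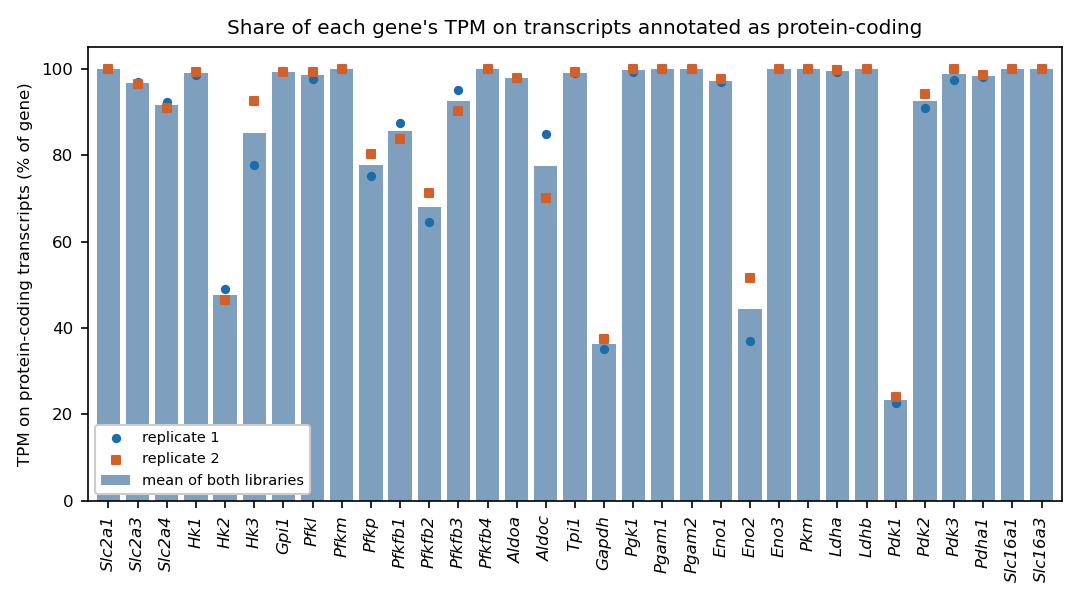
Percent of each gene's TPM on transcripts annotated as protein-coding, as the mean of both libraries (bars from 0) with each library as a point; Pklr is left out for its low count. Pdk1, Gapdh, Eno2 and Hk2 stand under 50% and Pfkfb2 at 67.9%.

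Several of the abundant enzymes have processed pseudogenes whose sequence is nearly the same, and the authors' estimate divided reads among them. At 90% identity or more over at least 50% of the shorter sequence, 185 annotated genes matched 12 of the 34 genes. Most were processed pseudogenes, but not every match is a copy. The match of Pfkfb2 overlaps the Pfkfb2 locus itself, and the 2 matches of Pdk1 are short RNAs aligned over 137 and 133 bases. Gapdh alone had 150 matches, 3 of them annotated as protein-coding genes. The loci of 2 of these 3 contain matching pseudogenes and are not plain copies. Such a locus added 95 and 140 counts to the share that follows. Together the 150 held 8.20% and 8.51% of the counts of Gapdh and its matches. For Pgk1 the share was 10.1% and 10.6%, nearly all of it on Pgk1-rs7 (chr12:10898986-10900240), which was identical to Pgk1 over 1255 aligned bases and was listed at 20.5 and 23.9 TPM. For Pgam1 it was 2.54% and 2.59%, on Pgam1-ps2 at 13.4 and 15.1 TPM. For Eno1 it was 2.08% and 2.18%, mostly on Gm4735 at 13.1 and 17.7 TPM. Another Gapdh copy, Gm13394, was listed at 11.97 and 14.71 TPM. Reads of such copies and of their parents are uncertain in both directions. The deposited posterior SD of the count, a measure of this uncertainty, was under 1% of the count in 32 of the 34 genes. The exceptions were Pgk1 and Pklr, which were over 1% in both libraries.

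Lactate dehydrogenase was the highest step, at 1408 and 1513 TPM, 41.5-fold ± 2.69 the hexokinase sum. Ldha, the subunit that favours pyruvate reduction (chr7:46841475-46855627), was at 997.75 and 1107.45 TPM and rank 97 of protein-coding genes. Ldhb, the subunit that favours lactate oxidation (chr6:142490249-142507957), was at 410.19 and 405.17 TPM and rank 318. Ldha RNA exceeded Ldhb RNA 2.43-fold in replicate 1 and 2.73-fold in replicate 2. Its share of the step was 72.0% ± 1.66. Of the paralogues outside the 34 genes, the testis form Ldhc had 2 counts in each library.

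Slc16a1, encoding MCT1, which carries lactate and pyruvate with a proton, was at 67.89 and 69.82 TPM. Slc16a3, encoding MCT4, the exporter of strongly glycolytic cells, was at 4.49 and 4.26 TPM. MCT1 RNA thus exceeded MCT4 RNA 15.1-fold and 16.4-fold. Bsg (basigin) and Emb (embigin), chaperones that bring monocarboxylate transporters to the cell surface, were higher than Slc16a1 and Slc16a3, at 309 and 330 TPM and at 152 and 137 TPM.

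At the branch to the mitochondrion, Pdha1, the E1 alpha subunit of pyruvate dehydrogenase, was at 98.64 and 100.58 TPM, and Ldha exceeded it 10.12-fold and 11.01-fold. The kinases that switch the complex off summed to 116.63 and 105.45 TPM, above Pdha1. On coding transcripts alone they summed to 69.04 and 68.19 TPM, below Pdha1 at 96.69 and 99.04 TPM. Pdk1, a kinase induced under low oxygen, was at 58.67 and 48.16 TPM and Pdk3 at 46.54 and 46.55 TPM, so that over all transcripts Pdk1 led with 48.0% ± 3.28. On coding transcripts alone Pdk3 led with 67.0% and Pdk1 held 18.1%, so the order of these 2 kinases turned with the transcripts counted. The coding values leave out Pdk1-208, which held 43.1% and 43.9% of Pdk1 counts and lies wholly inside exons of coding transcripts. The order of the kinase sum and Pdha1 also depends on how such counts are assigned, which was not tested. Pdk2 was at 11.42 and 10.74 TPM. Pdk4, the kinase raised in fasting, was not among the 34 genes and was at 0.60 and 0.87 TPM.

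The promoters of Ldha and Slc16a1 are shown because both are high, lie at the lactate end, and hold the letters CACGTG, the E-box that MYC and MAX are known to bind. It contains ACGTG, the core of the element bound by HIF1A with ARNT. Each sequence is the 250 bases before a start site in RefSeq (GRCm38.p6), Ldha at chr7:46845554-46845803 and Slc16a1 at chr3:104638414-104638663, both on the plus strand; capitals mark CACGTG or ACGTG, read on both strands.

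Ldha promoter: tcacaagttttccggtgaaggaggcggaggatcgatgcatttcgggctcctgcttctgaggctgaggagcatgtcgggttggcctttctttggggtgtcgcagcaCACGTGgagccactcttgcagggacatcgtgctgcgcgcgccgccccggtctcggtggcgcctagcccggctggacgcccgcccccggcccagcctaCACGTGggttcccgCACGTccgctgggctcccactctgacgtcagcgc
Slc16a1 promoter: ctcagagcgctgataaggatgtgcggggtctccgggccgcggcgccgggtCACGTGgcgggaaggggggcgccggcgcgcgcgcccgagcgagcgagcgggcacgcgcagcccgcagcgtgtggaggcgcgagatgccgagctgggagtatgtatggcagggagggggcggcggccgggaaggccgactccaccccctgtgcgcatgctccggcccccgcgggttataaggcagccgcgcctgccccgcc

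The Ldha window held 3 capital runs and the Slc16a1 window 1. RefSeq promoters were matched for 32 of the 34 genes, with 52 start sites, and not for Slc2a3 and Slc2a4. On either strand, ACGTG was in 19 of the 52 windows (36.5%), in 15 genes, beside 16.6% of 32851 windows of all genes and 21.1% of 12418 windows of detected protein-coding genes. CACGTG, every match of which is also a match of ACGTG, was in 6 windows (11.5%), of Ldha, Pdk2, Pfkfb2, Pfkfb3, Pfkm and Slc16a1, beside 6.02% and 7.99%. These counts describe letters and not binding, and start sites of 1 gene can share bases. Of the factors themselves, Myc was at 157 and 167 TPM, Max at 14.4 and 13.9 TPM, Hif1a at 61.9 and 62.8 TPM and Arnt at 16.2 and 16.7 TPM. Epas1, the endothelial relative of Hif1a, was at 1.92 and 1.30 TPM. Txnip, an inhibitor of glucose uptake whose RNA follows glucose supply, was the highest of the 16 regulators at 215 and 214 TPM, while Mlxipl, a glucose-sensing factor of liver and fat, was at 0.33 and 0.25 TPM.

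The neighbouring pathways set these levels in context. Of 21 other paralogues of the same steps 8 were detected, and the median of the list was 0.735 TPM. The highest were Bpgm, which makes 2,3-bisphosphoglycerate in red cells, at 32.1 and 31.5 TPM, the ADP-dependent glucokinase Adpgk at 14.9 and 16.1 TPM and the transporter Slc2a8 at 11.2 and 10.9 TPM. Of the 8 erythroid markers 5 were detected, with sums of 3104 and 2785 TPM, beside Bpgm; their part in its level was not tested. Pgk2 and Slc16a8 were at 0 counts in both libraries, which at 3 counts allows up to 0.0768 and 0.0722 CPM (counts scaled to library size).

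Pyruvate import and the rest of its dehydrogenase complex had 9 of 10 genes detected, led by the mitochondrial pyruvate carriers Mpc1 (234 and 232 TPM) and Mpc2 (185 and 184 TPM) and by Pdhb (180 and 183 TPM). The pentose phosphate pathway, which leaves glycolysis at glucose 6-phosphate, had 7 of 7 detected and a median of 68.8 TPM, with Taldo1 at 295 and 333 TPM. The serine branch, which leaves at 3-phosphoglycerate, had 5 of 5 detected and a median of 81.3 TPM, with its first enzyme Phgdh at 270 and 292 TPM. The tricarboxylic acid cycle had 16 of 16 detected and a median of 123 TPM, and the NADH shuttles 8 of 9 and 52.1 TPM. The lowest of these lists was gluconeogenesis, with 4 of 7 detected and a median of 2.87 TPM. Its highest gene was Fbp1 at 14.96 and 12.80 TPM. G6pc (0.06 and 0.14 TPM), Fbp2 (0.28 and 0.33 TPM) and Pck1 (1.35 and 0.43 TPM) were below 1 TPM in at least 1 library.

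**Figure D4:**
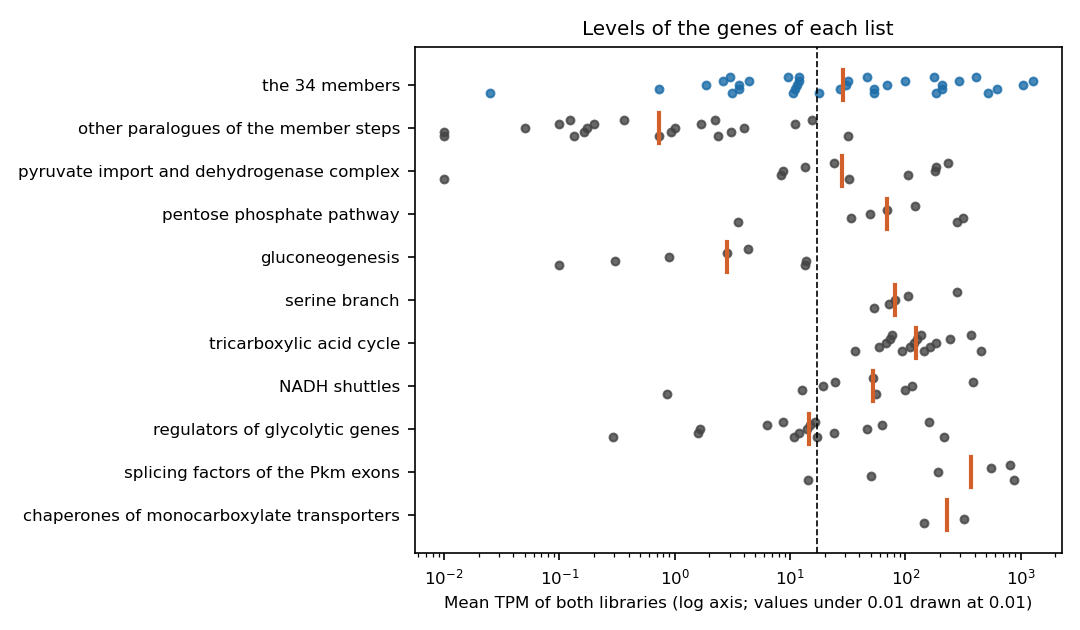
Mean TPM of both libraries (log axis, values under 0.01 drawn at 0.01) of each gene of each list; orange bars are list medians and the dashed line is the median of detected protein-coding genes, 17.3 TPM. The tricarboxylic acid cycle lies wholly right of the line, gluconeogenesis wholly left and the other paralogues almost wholly left. The 34 genes span both sides.

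Between the libraries the 34 genes differed little. Ratios were taken on TMM-scaled counts and over genes with a mean count of at least 50, which left 33 of the 34. Of these, 23 were higher in replicate 2 and 10 in replicate 1, beside 7292 and 6863 of 14155 genes with that count. The median log2 ratio was 0.07, beside 0.01 over all genes. Over genes of at least 100 TPM in both libraries, a level that 10 of the 34 reached, it was also 0.07. Over 25% higher in replicate 2 were 2 of 33 genes (6.06%), beside 5.93% of all genes, so the share was near the background. They were Pfkl (log2 ratio 0.38, counting interval of the fold 1.24 to 1.36) and Pgam2 (0.32, 1.12 to 1.40). Each counting interval is an exact 95% binomial interval of the estimated counts. It holds the sampling of reads only and leaves out the spread between pups. Over 25% higher in replicate 1 was 1 of 33 genes (3.03%), beside 10.7% of all genes. It was Hk2, with 366 and 267 counts and a log2 ratio of -0.53, which is 1.44-fold higher in replicate 1 (counting interval 1.23 to 1.70), but 0.17 under scaling by spike-in RNA. That scaling, which rests on 659 and 427 counts, moved the median of all genes to 0.71, so every direction here is relative to the other genes. At 1.5-fold in either direction the count was 0 of 33, beside 4.77% of all genes. The spread between these libraries over all genes was a biological coefficient of variation of 11.7%, which corresponds to an SD of 0.24 for a log2 ratio.

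All 10 genes of at least 100 TPM were higher in replicate 2, by 1.01-fold for Ldhb to 1.24-fold for Tpi1. The same direction was found in 75.2% of all genes of that level, and by the ratio of TPM it held for 9 of the 10, with Ldhb lower in replicate 2. Beside Pgam2, the skeletal muscle markers with a mean count of at least 50 were higher in replicate 2 in 7 of 7 cases, with a median of 1.57-fold. Only 4 of the 7 were over 25% higher. The most abundant marker, Mylpf, was 1.06-fold and Tnni2 1.00-fold. Of all genes with such a count, 7292 of 14155 were higher in replicate 2. Of the other muscle forms, Eno3 was 0.98-fold, Slc2a4 0.95-fold and Pfkm 0.89-fold in replicate 2 relative to replicate 1, all 3 turning to over 25% higher in replicate 2 under spike-in scaling. The part of muscle RNA in the Pgam2 difference was not tested.

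**Figure D5:**
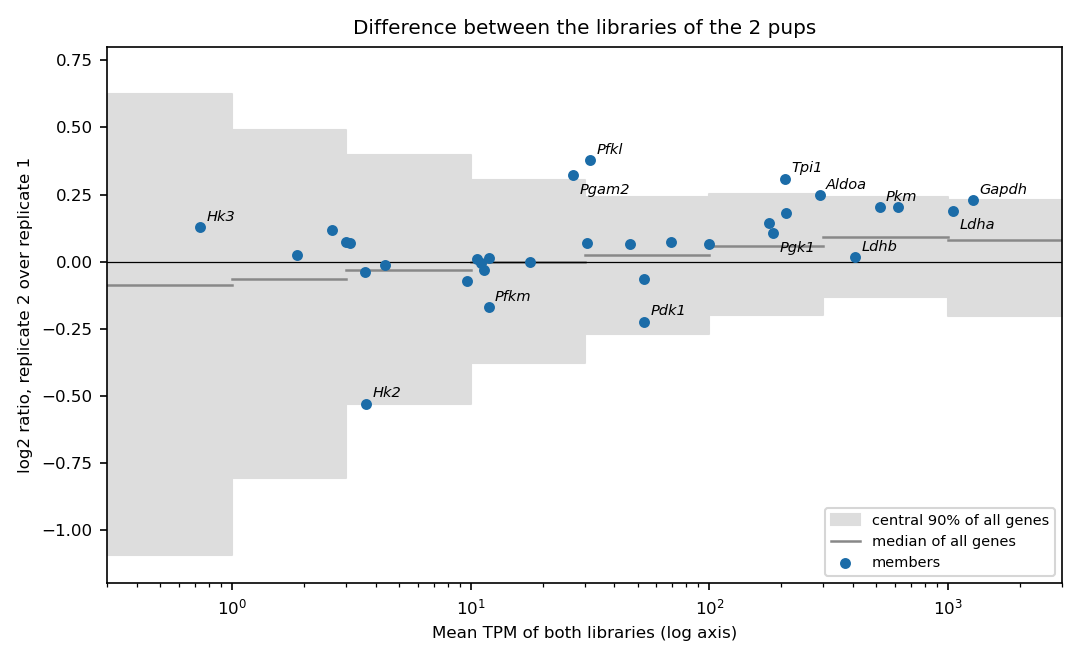
log2 ratio of replicate 2 over replicate 1 against mean TPM (log axis) for the 33 genes with a mean count of at least 50 (blue points); grey boxes hold the central 90% of all genes in each TPM range and grey lines their median. Pfkl, Pgam2 and Tpi1 lie above the grey boxes, Hk2 lies at the lower edge of its box, and the other labelled genes lie within or at the edge.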

How the data were processed

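Total RNA (10 ng per library, per the labels) was measured in 2 thymus libraries. The build was mm10 per the labels, with annotation GENCODE M4 according to the read-me texts. Symbols, transcript types and coordinates came from GENCODE M21 by identifier, which matched 42462 of 43346 genes. The aligner, quantifier and strandedness were not given in the sources used here. Reads of overlapping genes on opposite strands (13 of the 34 genes have such an overlap) therefore cannot be told apart.

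The authors deposited expected counts, which are estimated and not normalized, with a posterior SD of each count as a score of its uncertainty. They deposited TPM and FPKM, relative to transcript length and library. They also deposited the percent of a gene's TPM on each transcript. Rows that are only a number, and phiX, held 0.000105% and 0.0000404% of counts and were left out, as were 659 and 427 spike-in counts from gene totals. The labels name separate pups, so the libraries count as 2 samples. A chi-square per degree of freedom of 17.5 over 19768 genes shows only that the files are not 1 library deposited again.

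Levels, shares and lists used TPM as deposited. Ratios used edgeR 4.0.16 TMM scaling with a prior count of 0.5, and the spread edgeR's common dispersion over 17258 genes. With 1 group no test between groups exists and none was run. The calculation of ratios and spread was tested on simulated data. Copies were found by aligning transcripts with minimap2 2.31. All 34 genes could be named; of other lists, the 3 highest genes, those under 1 TPM, all regulators, splicing factors and chaperones, all cell type markers, and copies of at least 10 TPM. The genes, lists and thresholds were chosen with earlier results of these data known. Alternatives covered DESeq2 1.42.0 size factors, spike-in scaling, FPKM, other thresholds, leaving out each library, and coding transcripts only.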

Additional observations from a re-analysis of the deposited data

How the results depend on the processing

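Over 143 recomputed values, 97 stayed within the limits set, 45 moved and 1 reversed. For levels and shares the limit was the SD of the 2 libraries, so leaving out a library could hardly move them. Shares by FPKM, which is proportional to TPM within a library, could hardly move either. The 97 is therefore no measure of how stable the results are. A reversal was scored only for Hk2, Pfkl and Pgam2. With TPM rescaled to protein-coding genes, then with FPKM, the median gene stood at 34.8 and 22.0, glucose uptake at 45.8 and 28.9, hexokinase at 42.4 and 26.8, phosphofructokinase at 116.6 and 73.6, Gapdh at 1528 and 965, pyruvate kinase at 622 and 393 and lactate dehydrogenase at 1760 and 1110. On coding transcripts alone, a setting chosen for levels after seeing the data, the median gene stood at 22.3 TPM, glucose uptake at 36.8, hexokinase at 32.9, phosphofructokinase at 84.4 and Gapdh at 461. Shares by expected counts, then on coding transcripts, were 42.8% and 48.0% for Slc2a1, 90.7% and 92.8% for Hk1, 49.0% and 48.9% for Pfkp, 60.7% and 58.4% for Pfkfb3, 99.3% and 99.5% for Aldoa, and 56.1% and 18.1% for Pdk1. By expected counts alone, Pgam1 moved to 94.8%, Eno1 to 98.2%, Ldha to 75.9% and Slc16a1 to 96.9%. Spike-in scaling, which rests on 659 and 427 counts, put the median log2 ratio at 0.71 over all genes and at 0.77 over the 34 genes. It put 32 genes over 25% higher in replicate 2 and 0 in replicate 1, with Hk2 at 0.17. By the ratio of TPM 0 genes were over 25% higher in replicate 2, and with a prior count of 5 there was 1, Pfkl. At 95% identity 76 matching genes were found in place of 185. Leaving out either library gave 32 detected genes both times, medians of 26.2 to 30.3 TPM and an M2 share of 98.00 to 98.04%. No paired analysis was possible because all samples belong to 1 group. With 2 littermates, depth limits Pklr and Hk3 most, at about 2 and 59 to 68 counts.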
